A study of Mus musculus with 48 samples.

Results

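Gene expression in the liver was compared with that in the colon of C57/BL6 mice aged 12 weeks, over all diets of the series together. An array was taken as liver or as colon from the tissue in its title, and this placed 24 of the 48 arrays in the liver and 24 in the colon. The labels give 2 liver arrays of diet HH the same animal, and their deviations from the group mean had a correlation across probes of 0.805, against 0.261 for the next closest pair, so they were averaged. This left 23 liver mice (5 HH, 6 HL, 6 LH and 6 LL) and 24 colon mice (6 of each diet). In the name of a diet group the first letter stands for what the dam ate, and the second for what the pup ate from weaning to 12 weeks of age. The study describes diet H as supplemented with selenium and folate, and diet L as marginally deficient in both. Its methods describe both as high-fat diets, so no mouse received a low-fat diet. According to the study's methods, all mice were fasted and then re-fed before the tissues were taken. On every array, RNA of a mouse labelled with Cy3 was hybridised against a common reference labelled with Cy5, without a dye swap. The study's methods call the reference pooled intestinal and liver RNA, whereas the series' design text describes it as taken from an entire pregnant mouse with its foetus. Values are log2 ratios of mouse over reference, and because the reference is common, a difference between organs is the liver mean minus the colon mean, with each diet given equal weight. The values measure whole organs, in which fewer cells of a type and less RNA per cell cannot be told apart.

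The liver secretes most plasma proteins, stores and releases glucose, disposes of nitrogen as urea, makes bile acids from cholesterol and clears drugs and toxins, and most of these tasks belong to the hepatocyte. The colon takes up water and salts through absorptive colonocytes, covers itself with mucus from goblet cells, renews its epithelium from crypt stem cells and moves its content with smooth muscle under the control of enteric neurons. Both epithelia develop from the endoderm. Factors of the HNF4 family act at many liver genes, and the CDX factors, relatives of fly caudal, act at many intestinal genes.

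Promoter sequences of genes that differed strongly are shown here because the genes are followed below and because their promoters contain the letters bound by these factors. The sequences are those of RefSeq on GRCm38.p6, each from 250 bases before to 50 bases after a transcription start site and written 5′ to 3′ on the strand of the gene. Capitals mark the match, CAAAGTCCA for HNF4 and TTTATGG for CDX. Both strands were searched, and the 3 promoters were chosen after the expression values were known. The promoter of *Cyp8b1*, which was higher in the liver (sterol 12alpha-hydroxylase, chr9:121916256-121916555, minus strand), contains the HNF4 letters on the strand of the gene. The CDX letters stand on the opposite strand in the promoter of *Agr2*, a disulfide isomerase of goblet cells (chr12:35992675-35992974, plus strand), and on the strand of the gene in that of *Gpx2*, the gastrointestinal glutathione peroxidase (chr12:76795505-76795804, minus strand), and both genes were higher in the colon. A match is a description of the letters and does not show that a factor binds there.
Cyp8b1: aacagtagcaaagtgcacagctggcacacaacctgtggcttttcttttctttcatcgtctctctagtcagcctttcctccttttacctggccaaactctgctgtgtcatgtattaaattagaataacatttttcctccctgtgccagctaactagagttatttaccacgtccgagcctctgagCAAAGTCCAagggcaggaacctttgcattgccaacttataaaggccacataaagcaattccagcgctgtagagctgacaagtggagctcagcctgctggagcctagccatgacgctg
Agr2: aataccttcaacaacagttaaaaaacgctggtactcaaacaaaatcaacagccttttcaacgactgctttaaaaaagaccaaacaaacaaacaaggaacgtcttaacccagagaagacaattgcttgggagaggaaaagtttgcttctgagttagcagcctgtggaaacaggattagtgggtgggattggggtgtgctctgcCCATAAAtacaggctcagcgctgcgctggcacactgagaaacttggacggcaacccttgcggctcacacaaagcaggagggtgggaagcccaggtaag
Gpx2: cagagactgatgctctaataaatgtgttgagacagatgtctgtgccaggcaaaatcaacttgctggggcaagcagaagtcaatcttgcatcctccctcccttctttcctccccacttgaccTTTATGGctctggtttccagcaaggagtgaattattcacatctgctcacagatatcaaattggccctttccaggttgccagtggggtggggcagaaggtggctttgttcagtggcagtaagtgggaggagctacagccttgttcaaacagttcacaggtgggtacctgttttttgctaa

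The HNF4 letters stood in 2.29% of the 743 promoters of genes over 4-fold higher in the liver, in 0.727% of the 825 promoters of genes over 4-fold higher in the colon and in 0.485% of the promoters of all measured genes. For CDX the shares were closer, with 2.42% in the liver, 3.15% in the colon and 2.22% over all measured genes. The TATA box letters TATAAA stood in 19.1% of the liver promoters, 12% of the colon promoters and 11.4% of those of all measured genes. The table held a promoter for 591 of the 751 liver genes and 629 of the 857 colon genes, some with several start sites, and these shares were not tested.

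Organ was the main source of variation between the mice. The first principal component of the 40247 probes measured in every mouse held 87.3% of the variance and the second 2.3%. In the limma fit, a call required a change of over 1.5-fold together with a false discovery rate (FDR, Benjamini-Hochberg) below 0.05. Of 41171 probes tested, 6023 (14.6%) were higher in the liver and 6474 (15.7%) higher in the colon. With the brightest probe taken for each of 18433 named genes, 3414 genes (18.5%) were higher in the liver and 4194 (22.8%) higher in the colon. A stricter test against a fold change of 4 called 751 genes (4.07%) higher in the liver and 857 (4.65%) higher in the colon. The lowest mouse of one organ stood above the highest mouse of the other for 2634 genes (14.3%) in favour of the liver and 3279 (17.8%) in favour of the colon. The median difference over all named genes was 0.01 on the log2 scale. The SD between all mice of an organ, with the diets together, had a median over these genes of 0.19 in the liver and 0.17 in the colon.

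More of the array was lit by the colon than by the liver. The share of spots with a Cy3 signal well above background was 55.1 to 66% in the liver mice (mean 60% ± 2.4, SD, n = 23), and 66.8 to 73.7% in the colon mice (mean 70.3% ± 1.95, SD, n = 24). The difference of -10.4 percentage points had p = 1e-05 in a two-sided permutation test, the smallest value that 100000 resamples can give. Mice were permuted singly, without regard to slide. In the reference channel 73.9 to 79.2% of the spots were above background on the liver arrays and 73.7 to 80.1% on the colon arrays. Of the named genes, 26 were above background on every liver array and on no colon array, against 376 for the reverse, while 11953 were above background on all arrays and 1613 on none. The liver arrays lay on slides 1 to 6 and the colon arrays on slides 7 to 12, scanned on different days, so that slide, scan day and organ cannot be told apart. Between the organs, 0.163% of probes differed by over 2-fold in the reference channel and 17.5% in the mouse channel. Precision is limited by the number of arrays, and the labels do not say whether any mouse gave both organs.

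Several mice stood apart from others of their organ, and they were kept. The study's methods describe male offspring, yet the female-specific RNA *Xist*, made by the silenced X chromosome, reached a log2 Cy3 signal of at least 9.54 in 2 liver and 6 colon mice, and of at most 8.12 in the other mice. The Y-linked *Eif2s3y* was at most 7.16 in 4 of these 8 mice and at least 10.32 in every other mouse. Markers of other cell types were high in 4 mice. The mean log2 Cy3 signal of the marker list for B cells and plasma cells was 11.42 in colon LL replicate 4 against a colon median of 8.98, and this mouse was also high for Kupffer cell markers (9.6 against 7.7) and T cell markers (9.88 against 8.87). Liver HL replicate 1 stood at 13.14 for pancreatic acinar markers (median 8.83), liver LH replicate 4 at 11.79 for adipocyte markers (9.1), and the HH liver animal with 2 arrays at 10.84 for fibroblast markers (9.93) and 11.07 for macrophage markers (9.82). Without these 4 mice 6076 probes were higher in the liver and 6501 in the colon, and without them and the 8 mice with *Xist* 6115 and 6516.

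Among named genes at their brightest probe, the largest difference belonged to *Mup6*, a major urinary protein that carries pheromones, with log2 ratios from 1.58 to 3.73 (median 2.76) in the liver and from -8.64 to -7.65 (median -8.16) in the colon. It was 1830-fold higher in the liver (log2 difference 10.83 ± 0.12, SE, FDR = 1e-47). *Mup1* and *Mup5* differed by 9.14 and 9.05, but genes of this family are nearly identical copies and their probes may measure more than one of them. *Akr1c6*, a hydroxysteroid dehydrogenase, was 1030-fold higher in the liver, with ratios of 1.04 to 2.79 there against -8.36 to -7.4 in the colon. Absence of overlap between liver and colon mice was a condition for listing these genes. Others among the 15 genes with the largest difference toward the liver were *Cyp2a5*, *Cyp4a14*, *Cfi*, *Slco1b2*, *Wfdc21*, *Rgn*, *Serpinc1*, *Fabp1*, *Fgg* and *Fetub*, with folds from 966 down to 326.

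In the colon the list was led by *Adamdec1*, a metalloprotease of intestinal mesenchymal cells and macrophages. Its ratios ranged from 2.95 to 3.76 (median 3.4) in the colon and from -5.54 to -4.28 (median -4.83) in the liver, a 312-fold difference (-8.28 ± 0.074, FDR = 9.03e-52). *Cyp2c65*, a cytochrome P450 that oxidises arachidonic acid, was 299-fold higher in the colon (2.69 to 3.59 against -5.52 to -4.52 in the liver). *Tspan1*, a tetraspanin of secretory epithelia, was 226-fold higher, and *Lypd8*, a secreted protein that holds flagellated bacteria off the epithelium, 159-fold. Here too, listing required that no liver mouse overlapped with a colon mouse. The other genes of the 15 were *Phgr1*, *Clca1*, *B3galt5*, *Isx*, *Agr2*, *Cnn1*, *Chgb*, *Lgals4*, *Degs2*, *Guca2a* and *Fam83e*, with folds between 175 and 90.7. Among them are a chloride channel regulator of mucus (*Clca1*), a muscle protein (*Cnn1*), a granule protein of endocrine cells (*Chgb*) and a peptide hormone of colonocytes (*Guca2a*).

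**Figure D1:**
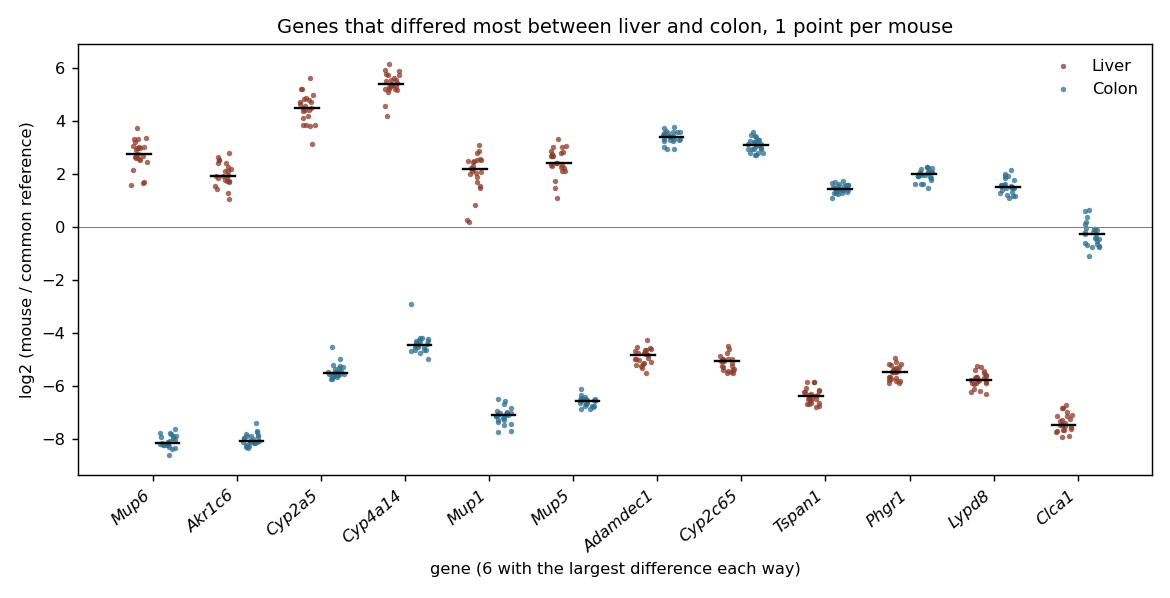
Log2 ratio of mouse over common reference (y axis) for the 6 genes with the largest difference toward the liver and the 6 toward the colon (x axis), with 1 point per mouse (23 liver, 24 colon) and a bar at the median. The liver and colon points of each gene do not overlap, which was a condition for choosing the genes. For *Mup6* the points lie from 1.58 to 3.73 in the liver and from -8.64 to -7.65 in the colon.

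Lists of genes were then followed, each described by how many of its measured members were called and by the median of their differences. These are set against the 18.5% of named genes called higher in the liver, the 22.8% called higher in the colon and the median of 0.01. The plot of gene lists gives all 41 of them.

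**Figure D2:**
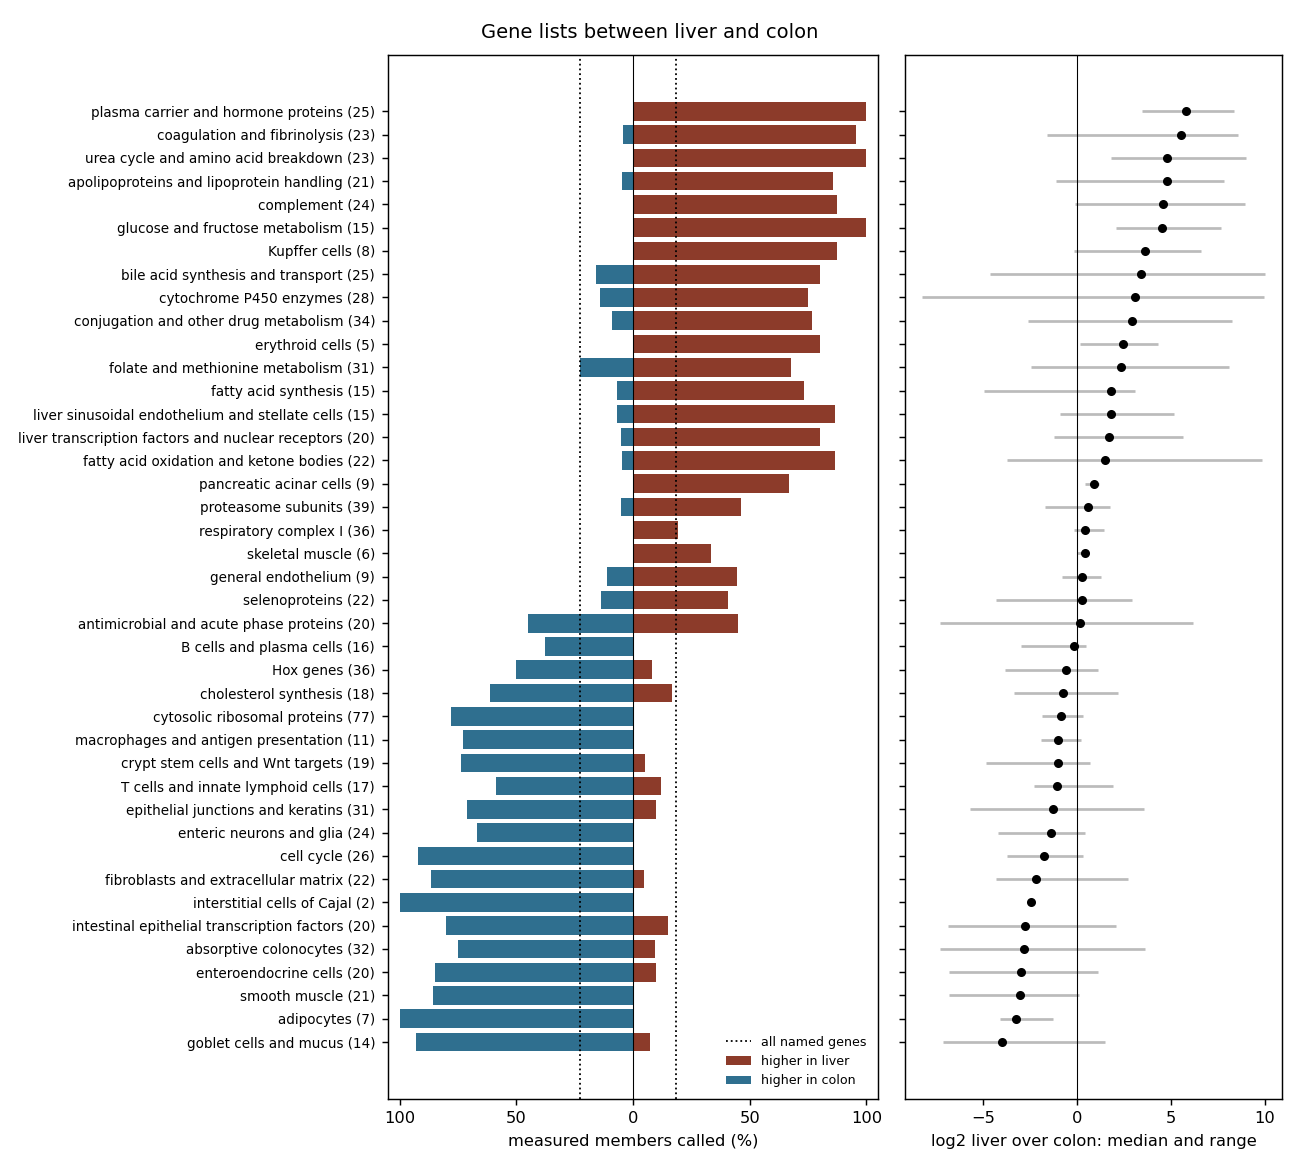
Percentage of the measured members of each gene list called higher in the liver (to the right) or in the colon (to the left), with the number measured in brackets and dotted lines at the values for all named genes (18.5 and 22.8%). The right-hand panel gives the median (point) and the range (line) of the log2 difference of liver minus colon, from 5.79 for plasma carrier proteins down to -3.98 for goblet cells.

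Proteins that the liver secretes into plasma formed the group with the highest median. Of 26 carrier and hormone proteins listed, 25 were measured, and all 25 were higher in the liver by over 4-fold, with a median difference of 5.79. Albumin (*Alb*), the main protein of plasma, had ratios of 0.2 to 1.3 (median 0.72) in the liver and of -4.77 to -3.75 (median -4.25) in the colon, a 33-fold difference (5.04 ± 0.083, FDR = 1.5e-41). Transthyretin (*Ttr*), which carries thyroid hormone and retinol-binding protein, was 55.2-fold higher. *Fetub*, an inhibitor of a fertilisation protease, was 326-fold higher, *Ambp*, the precursor of alpha-1-microglobulin and bikunin, 266-fold, *Apoh*, a phospholipid-binding glycoprotein, 260-fold and the haem carrier *Hpx* 220-fold. The smallest difference in the list was that of *Itih4*, at 10.9-fold. These genes mark hepatocytes and check the tissue labels, and the mean log2 Cy3 signal of the list was 15.66 to 16.27 in the liver mice and 9.78 to 10.22 in the colon mice.

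Of 23 genes of coagulation and fibrinolysis, 22 were higher in the liver (median 5.54). Antithrombin (*Serpinc1*), which inhibits thrombin, had ratios of 1.79 to 2.46 in the liver and -6.74 to -5.93 in the colon, a 381-fold difference. The fibrinogen chain *Fgg* was 335-fold, kininogen (*Kng1*) 146-fold and prothrombin (*F2*, with values in 22 liver mice) 119-fold higher. The smallest difference was that of protein S (*Pros1*), 2.45-fold. The single gene of the list that ran the other way was tissue factor (*F3*), the membrane receptor that starts clotting outside the vessel, which was 2.98-fold higher in the colon (-0.62 to 0.36) than in the liver (-2.14 to -1.24). Among the 24 complement genes 21 were higher in the liver and 0 in the colon (median 4.57). *Cfi*, the protease that inactivates C3b and C4b, differed 484-fold, complement component 5 (*Hc*) 137-fold, *C8a* 115-fold and *C4bp* 110-fold. *Masp1*, a protease of the lectin pathway, was not well above background on any colon array, and was at least 9.61-fold higher in the liver. Such bounds come from the Cy3 signals after loess and Aquantile normalisation, and without dye swaps they are open to dye bias. *C1qa*, part of C1q, which macrophages make, had ratios from -0.042 to 1.96 in the liver and from 0.49 to 1.7 in the colon and was not called (difference -0.12 ± 0.1, FDR = 0.333).

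Apolipoproteins and lipoprotein handling had 18 of 21 measured genes (22 listed) higher in the liver and 1 higher in the colon, with a median of 4.76. *Apof* was 225-fold, *Apoc1* 165-fold and *Apoc4* 152-fold higher in the liver. *Apoa1*, the main protein of high-density lipoprotein, was 86.3-fold higher, *Apob*, the scaffold of very-low-density lipoprotein, 17.9-fold and *Apoa4* 34.8-fold. Lipoprotein lipase (*Lpl*), which takes up fat from lipoproteins in peripheral tissues, ran the other way. Its ratios were -4.01 to -1.44 (median -3.33) in the liver and -3.79 to -0.82 (median -1.96) in the colon, and the organs overlapped (difference -1.14 ± 0.2, FDR = 3.42e-06). *Pltp*, which transfers phospholipids, differed by 0.12 ± 0.1 (FDR = 0.28).

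Of 25 measured genes of bile acid synthesis and transport (26 listed), 20 (80%) were higher in the liver and 4 (16%) in the colon, with a median of 3.41. *Cyp7a1*, the rate-limiting enzyme of bile acid synthesis, had ratios of 3.03 to 5.68 (median 4.6) in the liver and -3.01 to -2.34 (median -2.55) in the colon, a 130-fold difference (7.02 ± 0.15, FDR = 1.88e-37), and its probe was above background on 4 of 24 colon arrays. *Cyp8b1*, which sets the share of cholic acid and whose promoter with its HNF4 letters is shown above, was 36.5-fold higher in the liver and above background on 2 colon arrays. *Akr1d1*, the steroid 5beta-reductase, was not well above background on any colon array and was at least 13.7-fold higher. *Baat*, which joins bile acids to taurine, was 145-fold and the export pump *Abcb11* 94.2-fold higher. The uptake carriers of the hepatocyte, *Slco1b2* and *Slc10a1*, were 467-fold and 58.9-fold higher. The 4 genes higher in the colon were carriers or binding proteins. *Slc51a* and *Slc51b*, the subunits of the basolateral exporter OSTalpha-OSTbeta, were 25.1-fold and 11.1-fold higher, and *Slc10a2*, the apical uptake carrier, 9.05-fold, with ratios of 1.6 to 2.97 in the colon and -1.69 to 0.37 in the liver. *Fabp6*, the bile acid binding protein of the ileum, was 2.92-fold higher in the colon. *Fgf15*, the hormone by which the ileum represses *Cyp7a1*, differed by 0.11 ± 0.05 (FDR = 0.0426) and turned to -0.66 with the scanner software's processed signals. *Nr0b2*, an orphan receptor that represses transcription, was 8.2-fold higher in the liver. The bile acid receptor *Nr1h4* was 1.51-fold higher there, with overlap between the organs.

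All 23 measured genes of the urea cycle and amino acid breakdown (25 listed) were higher in the liver, with a median of 4.79. *Otc*, which makes citrulline, was 27.7-fold, *Ass1*, which joins citrulline and aspartate, 26.5-fold, *Asl*, which splits the product, 15.7-fold and *Arg1*, which releases urea, 137-fold higher. *Agxt*, which detoxifies glyoxylate, had ratios of 1.66 to 3.38 in the liver against -5.14 to -4.5 in the colon, a 136-fold difference. The smallest difference in the list was that of alanine aminotransferase (*Gpt*), 3.51-fold, and no gene of the list was called toward the colon.

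The diets differed in folate. Of 31 measured genes of folate and methionine metabolism, 21 (67.7%) were higher in the liver and 7 (22.6%) in the colon, against 18.5% and 22.8% of all named genes (median 2.35). *Mat1a*, which makes S-adenosylmethionine in hepatocytes, was 273-fold higher in the liver, where its ratios were 3.19 to 4.28, against -4.71 to -3.91 in the colon. *Dmgdh*, which oxidises dimethylglycine, was 180-fold, *Bhmt*, which remethylates homocysteine from betaine, 148-fold, *Ftcd*, which passes one-carbon units from histidine to folate, 108-fold and *Gnmt*, which uses up surplus S-adenosylmethionine, 76.1-fold higher. The folate enzyme *Shmt1* was 5.48-fold higher in the liver, and the proton-coupled folate transporter *Slc46a1* 5.1-fold. Toward the colon the largest differences were those of *Mthfd1l*, the formate-producing synthetase of mitochondria (5.44-fold), and *Mat2a*, the form of methionine adenosyltransferase outside the liver (3.41-fold). The reduced folate carrier *Slc19a1* was 1.85-fold higher in the colon with its brightest probe, but its probes were called in opposite directions. Methionine synthase (*Mtr*) ranged from 0.11 to 0.87 in the liver and from 0.25 to 1.04 in the colon (difference -0.069 ± 0.057, FDR = 0.289).

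Glucose and fructose metabolism was higher in the liver for all 15 measured genes (16 listed), with a median of 4.52. *Gckr*, a regulator of sugar phosphorylation, was 203-fold higher, with ratios of 2.66 to 3.74 in the liver and -4.85 to -3.83 in the colon. *G6pc*, which releases free glucose, was 31.3-fold higher (0.7 to 1.86 against -3.93 to -3.35), and *Khk*, which phosphorylates fructose, 10.5-fold. The smallest difference was that of *Pklr*, the liver pyruvate kinase, at 4.15-fold. Many genes of this list encode the hepatic form of an enzyme, so they were set beside the forms that other tissues use.

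Listed members of 19 families, mostly of enzymes and transporters, were compared. In 12 of the 19, 1 listed member was called higher in the liver and another higher in the colon. The low-affinity glucose transporter *Slc2a2* was 171-fold higher in the liver (above background on 10 colon arrays), and *Slc2a1* 3.29-fold higher in the colon. The liver and muscle-type pyruvate kinases *Pklr* and *Pkm* differed by 2.05 ± 0.1 and -2.1 ± 0.066 on the log2 scale. The same held for glycogen synthase (*Gys2*, 138-fold toward the liver, and *Gys1*, 1.71-fold toward the colon) and for glycogen phosphorylase (*Pygl*, 29.5-fold, and *Pygb*, 7.24-fold). *Fbp1*, the fructose bisphosphatase of gluconeogenesis, was 117-fold higher in the liver, whereas *Fbp2*, known from muscle, was 16.6-fold higher in the colon.

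The division extended beyond sugars. *Arg1* differed by 7.1 ± 0.065, and *Arg2*, the mitochondrial arginase, by -1.3 ± 0.091. *Hsd11b1*, which forms active glucocorticoid, was 35.3-fold higher in the liver, and *Hsd11b2*, which inactivates it in mineralocorticoid targets, 6.44-fold higher in the colon and above background on 3 of 24 liver arrays. Carbonic anhydrases followed the same division, with *Car3* 9.93-fold higher in the liver and *Car1* and *Car4* 39.2-fold and 8.37-fold higher in the colon. For *Car3* the organs overlapped (3.31 ± 0.25). In the other 7 families the listed members were not called in opposite directions, but the lists held only some members of a family. *Cldn1* and *Fabp1*, both higher in the liver, were listed, whereas *Cldn7* and *Fabp6*, both higher in the colon, were not. For lactate dehydrogenase *Ldhb* was 3.98-fold higher in the colon and *Ldha* differed by less than 0.01 (FDR = 0.999), and for alanine aminotransferase both *Gpt* and *Gpt2* were higher in the liver.

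**Figure D3:**
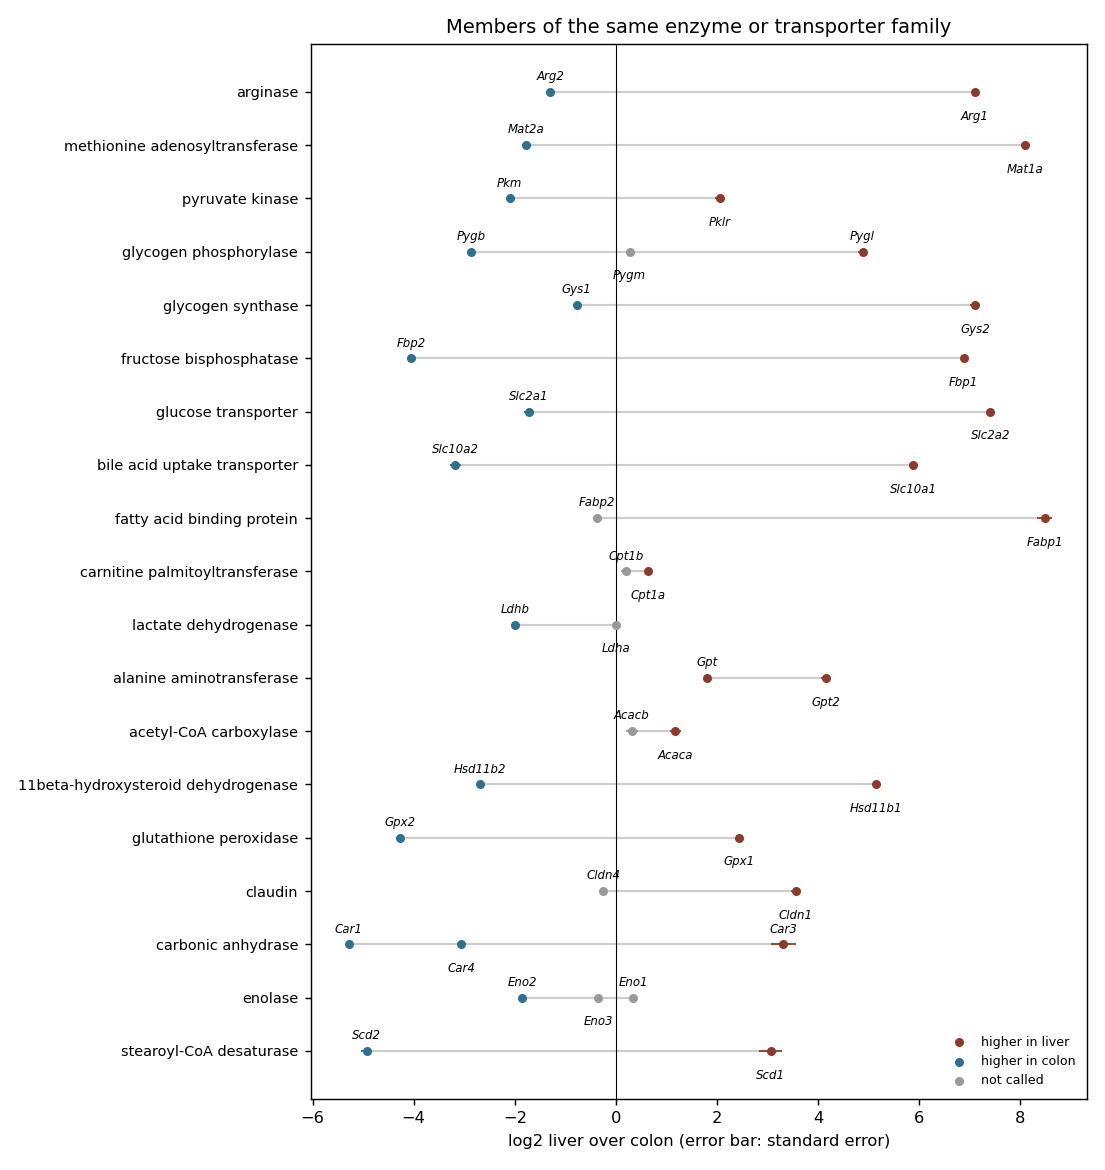
Log2 difference of liver minus colon (x axis, with bars for the standard error) for listed members of 19 families, mostly of enzymes and transporters (y axis). Colour shows whether the member was called higher in the liver, higher in the colon or not called. In 12 families members lie on both sides of 0 and are called in opposite directions, such as *Mat1a* at 8.1 and *Mat2a* at -1.77.

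Fat metabolism was divided as well. Of 22 genes of fatty acid oxidation and ketone bodies, 19 were higher in the liver and 1 in the colon, with a median of 1.51. The fatty acid hydroxylases *Cyp4a14* and *Cyp4a10*, which are nearly identical in sequence and may share probes, were 898-fold and 268-fold higher in the liver. *Fgf21*, a hormone of the fasted liver, varied more between mice than most genes, with ratios from 0.8 to 4.96 (median 2.98) in the liver and -0.85 to 0.4 (median -0.61) in the colon, where 1 array was above background (12.6-fold). *Oxct1*, which uses ketone bodies and is known to be absent from hepatocytes, was 13.1-fold higher in the colon (-2.06 to -0.86 against -6.27 to -4.45). *Acads* differed by 0.19 ± 0.068 and was not called.

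Of 15 genes of fatty acid synthesis, 11 were higher in the liver and 1 in the colon (median 1.78). The desaturase *Scd1* was 8.33-fold higher in the liver, with ratios of 1.86 to 3.29 there and of -2.82 to 1.12 in the colon. Its relative *Scd2* had the opposite pattern and was 30.4-fold higher in the colon. Fatty acid synthase (*Fasn*, 3.43-fold) and *Thrsp*, a protein of lipogenic tissues (5.66-fold), were higher in the liver with overlap between the organs. *Dgat2*, which completes triglycerides, was 5.89-fold and *Elovl5*, which lengthens fatty acids, 5.38-fold higher in the liver without overlap. *Srebf1*, the factor that activates fatty acid synthesis, was 3.87-fold higher in the liver without overlap. Cholesterol synthesis ran toward the colon, where 11 of 18 genes were higher, against 3 in the liver (median -0.77). The squalene epoxidase *Sqle* was 10.3-fold higher in the colon (-0.38 to 0.53 against -3.88 to -2.55), *Idi1* 3.54-fold and *Msmo1* 2.81-fold. *Sc5d*, which acts late in the pathway, and *Insig1*, which restrains it, were 4.55-fold and 3.15-fold higher in the liver.

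Enzymes of drug metabolism were mostly of the liver, with distinct members in the colon. Of 28 cytochrome P450 genes measured (29 listed), 21 were higher in the liver and 4 in the colon (median 3.06). *Cyp2a5*, which oxidises coumarin, had ratios of 3.13 to 5.6 in the liver and of -5.77 to -4.55 in the colon, a 966-fold difference, although its probe may also measure a nearly identical gene. *Cyp2j5* was 112-fold, *Cyp2f2* 98.2-fold and *Cyp2c54* 86.4-fold higher. *Cyp3a11*, the main drug oxidase of the mouse liver, was 34.2-fold, *Cyp2e1*, which oxidises ethanol, 44.7-fold and *Cyp1a2* 27.9-fold higher. Toward the colon, *Cyp2c65* was joined by *Cyp2s1*, 55.6-fold higher there (1.52 to 2.25 against -4.51 to -3.52). *Cyp4f14* differed by 0.24 ± 0.078 and was not called.

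Among 34 genes of conjugation and other drug metabolism, 26 were higher in the liver and 3 in the colon (median 2.93). The glucuronosyltransferase *Ugt2a3* had ratios of 1.95 to 2.97 in the liver and -6.34 to -5.12 in the colon, a 301-fold difference. The glutathione transferase *Gsta3* was 117-fold, *Ugt2b1* 96.4-fold and the aldehyde oxidase *Aox3* 20.6-fold higher. In the colon the sulphotransferase *Sult1c2* was 6.18-fold and *Gsto1* 2.88-fold higher.

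Of 20 liver factors and nuclear receptors measured (21 listed), 16 were higher in the liver and 1 in the colon, with a median of 1.69. *Onecut2* (49.5-fold) and *Onecut1* (26.6-fold), the homeobox factors of hepatocyte and bile duct formation, were the highest, followed by *Creb3l3* (24.3-fold), which responds to fasting, and the drug receptor *Nr1i3* (17-fold). *Cebpa* was 6.06-fold higher. *Hnf4a*, which both organs need, had ratios of 0.32 to 0.94 in the liver and of -0.91 to 0.36 in the colon, a 1.79-fold difference with overlap. *Foxa1* was 2.32-fold higher in the colon and its relative *Foxa2* 4.13-fold higher in the liver.

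Of 20 intestinal factors 16 were higher in the colon and 3 in the liver, with a median of -2.79. *Isx*, a homeobox gene that restrains vitamin A formation, had ratios of 2.02 to 2.62 in the colon and of -4.97 to -4.17 in the liver, a 118-fold difference. *Cdx2*, which sets intestinal identity, was 66.7-fold higher (1.04 to 1.93 against -4.87 to -4.06), *Cdx1*, above background on 16 liver arrays, 9.09-fold, *Klf4* 32.2-fold and *Klf5* 20.3-fold. *Hnf4g*, a relative of *Hnf4a*, was not called, with medians of -0.8 in the liver and -0.82 in the colon (FDR = 0.93). *Neurog3*, which starts endocrine differentiation, was 2.2-fold higher in the liver than in the colon, although it is known from endocrine progenitors of gut and pancreas.

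The epithelium of the colon was represented by its differentiated cells. Of 32 genes of absorptive colonocytes, 24 were higher in the colon and 3 in the liver, with a median of -2.8. When probes near background in both organs were filtered out, 31 genes remained, with 24 higher in the colon and 2 in the liver. The summary of these genes as mean log2 Cy3 signal was 12.28 to 12.83 in the colon mice and 9.72 to 10.22 in the liver mice. *Guca2a*, which encodes guanylin, had ratios of 1.76 to 2.34 in the colon and of -4.84 to -4.1 in the liver, a 99.8-fold difference. *Tmigd1*, an adhesion protein of the brush border, was 89-fold, *Krt20*, a keratin of surface cells, 48.2-fold and the chloride and bicarbonate exchanger *Slc26a3*, above background on 16 liver arrays, 10.6-fold higher. *Aqp8*, a water channel, ran the other way and was 12.3-fold higher in the liver. Its ratios were -0.92 to 0.98 (median 0.21) in the liver and -3.96 to -0.58 (median -3.57) in the colon, with overlap between the organs. The proton pump *Atp12a* was 4.78-fold higher in the liver. *Slc9a3*, the sodium and proton exchanger, was above background on 0 liver and 22 colon arrays and differed by -0.18 ± 0.04, a fold of at least 1.14 toward the colon.

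Goblet cell genes had the lowest median of all lists, at -3.98, with 13 of 14 measured genes (15 listed) higher in the colon. *Clca1*, a secreted metalloprotease of mucus, was 139-fold higher, with ratios of -1.09 to 0.64 in the colon and -7.95 to -6.73 in the liver. *Agr2*, whose promoter with the CDX letters is shown above, had ratios of 0.94 to 1.83 in the colon against -5.94 to -5.25 in the liver and was 118-fold higher. The mucin *Muc2* was 21.1-fold, the trefoil peptide *Tff3* 23.7-fold and the protease inhibitor *Spink4* 23.6-fold higher. *Ang4*, a bactericidal ribonuclease, was 2.81-fold higher in the liver, which is the only member called that way. Without the 4 mice with markers of other cell types, 12 genes were called higher in the colon. *Retnlb*, a resistin-like protein that intestinal infection raises, lay on the edge of the call, with ratios of -4.87 to -2.72 in the colon and -5.21 to -4.5 in the liver (-0.59 ± 0.11, FDR = 6.66e-06).

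Enteroendocrine genes were also of the colon, with 17 of 20 higher there and 2 in the liver (median -2.99). The granins *Chgb* and *Chga* were 112-fold and 39.7-fold higher, the satiety peptide *Pyy* 55.8-fold and neurotensin (*Nts*), above background on 9 liver arrays, 61.2-fold. *Pyy* had ratios of 1.24 to 2.31 in the colon and -4.25 to -3.55 in the liver. *Pcsk1*, which cuts prohormones, was not well above background on any liver array and was at least 19.3-fold higher in the colon. *Neurog3* was 2.2-fold higher in the liver, and *Rfx6* differed by -0.52 ± 0.041 and did not reach the fold change of a call.

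Cell junctions and keratins followed the epithelium. Of 31 genes, 22 were higher in the colon and 3 in the liver (median -1.28). The keratin *Krt19* was 51.1-fold, *Cldn7* 27.4-fold and *Epcam* 27.2-fold higher in the colon, where *Epcam* ranged from -0.33 to 0.67 against -5.07 to -4 in the liver. *Cldn1* and *Cldn14* were 11.8-fold and 3.58-fold higher in the liver, with *Cldn1* above background on 7 of 24 colon arrays. *Krt18*, a keratin of both hepatocytes and intestinal cells, differed by -0.085 ± 0.087 (FDR = 0.391).

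Crypt stem cell genes and Wnt targets were higher in the colon for 14 of 19 measured (20 listed), with 1 higher in the liver (median -1). *Prom1* was 29-fold higher, the ephrin receptors *Ephb3* and *Ephb2*, which order cells along the crypt, 7.96-fold and 5.52-fold, and *Axin2* 1.79-fold. *Lgr5*, the marker of crypt stem cells, had ratios of 0.34 to 2.08 (median 1.41) in the liver and of 0.7 to 1.87 (median 1.33) in the colon, a difference of 0.078 ± 0.096 (FDR = 0.484), and *Ascl2* was 1.63-fold higher in the liver. Neither of these markers was called toward the colon. Cell cycle genes were higher in the colon for 24 of 26 measured (28 listed), and 0 were higher in the liver (median -1.76). *Mcm6*, part of the replicative helicase, was 13.2-fold higher (0.41 to 1.3 against -3.29 to -1.5) and *Mki67*, present in cycling cells, 9.97-fold. *Birc5* was 6.49-fold and *Cdc20* 5.83-fold higher, the latter with overlap between the organs.

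The muscle wall and its nerves were also seen. Of 21 smooth muscle genes, 18 were higher in the colon and 0 in the liver (median -3.05). *Cnn1*, a regulator of contraction, had ratios of 1.86 to 2.84 in the colon and of -4.81 to -4.07 in the liver, a 112-fold difference. *Myl9* was 57.5-fold, the smooth muscle myosin *Myh11* 43.2-fold, *Synm* 27.6-fold, *Des* 12.3-fold, *Actg2* 7.33-fold and *Acta2* 4.09-fold higher. *Cald1* ranged from -0.036 to 2.45 in the liver and from 0.78 to 1.92 in the colon (difference 0.13 ± 0.16, FDR = 0.465). Among 24 genes of enteric neurons and glia, 16 were higher in the colon and 0 in the liver (median -1.36). The RNA-binding protein of neurons *Elavl4* and the calcium-binding protein *Calb2* were not well above background on any liver array, and were at least 12.9-fold and 9.1-fold higher in the colon. The relaxing peptide *Vip* was 18.6-fold and the precursor of substance P, *Tac1*, 8.02-fold higher, each above background on 1 liver array. *Ret* was near background in both organs (above it on 1 liver and 4 colon arrays) and differed by -0.015 ± 0.02, which turned to 0.71 with median centring in place of loess. Of the markers of interstitial cells of Cajal, the pacemakers of the gut, *Ano1* and *Etv1* were 6.14-fold and 4.81-fold higher in the colon.

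Fibroblast and matrix genes were higher in the colon for 19 of 22 measured (23 listed), with a median of -2.18. *Ogn* was 19.8-fold, *Postn* 14.5-fold and the collagens *Col1a1* and *Col1a2* 8.94-fold and 8.2-fold higher. *Col1a1* had ratios of -2.7 to -1.83 in the colon and -5.77 to -3.29 in the liver. Fibronectin (*Fn1*), which hepatocytes secrete into plasma, was the member higher in the liver, by 6.46-fold. Without the 4 mice with markers of other cell types the median was -2.27 and the counts were the same.

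The vessels and resident macrophages of the liver had their own genes. Of 15 genes of sinusoidal endothelium and stellate cells, 13 were higher in the liver and 1 in the colon (median 1.78). The lectin *Clec4g* had ratios of 1.55 to 3.05 in the liver and -2.9 to -1.28 in the colon, a 35.3-fold difference. *Colec11* was 30.5-fold, *Oit3*, above background on 1 colon array, 23.7-fold and *Gpr182* 10.3-fold higher. *Lyve1*, which marks sinusoidal and lymphatic endothelium, was 1.87-fold higher in the colon. For 9 genes of general endothelium, 4 were higher in the liver and 1 in the colon with a median of 0.29, which turned to -0.26 with median centring in place of loess. Of 8 Kupffer cell genes 7 were higher in the liver (median 3.62). *Cd5l*, a secreted scavenger protein, was 97.2-fold higher, with ratios of 2.12 to 4.12 in the liver and -4.1 to 0.9 in the colon, where the median was -3.68. *Clec4f*, the receptor that defines Kupffer cells in rodents, was 53.2-fold higher with no colon mouse above -2.71, and *Vsig4*, a complement receptor, 14.7-fold. *Cd163*, a haemoglobin scavenger receptor, differed by -0.14 ± 0.11 (FDR = 0.281).

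Genes that macrophages of many tissues share, and those of antigen presentation, were higher in the colon for 8 of 11 measured (13 listed) and in the liver for 0 (median -0.99). The endotoxin co-receptor *Cd14* was 3.74-fold, the class II chains *H2-Aa* and *H2-Ab1* 2.84-fold and 2.79-fold and the chemokine receptor *Cx3cr1*, above background on 6 liver arrays, 2.65-fold higher. *Adgre1*, which encodes F4/80, differed by 0.043 ± 0.11 (FDR = 0.751). Of 16 B cell and plasma cell genes 6 were higher in the colon and 0 in the liver (median -0.16). The joining chain of secreted antibody, *Jchain*, was 7.95-fold higher (-0.11 to 1.03 against -2.95 to -2.14), *Pou2af1* 4.67-fold and *Mzb1* 3.11-fold, and *Tnfrsf17*, the survival receptor of plasma cells, at least 3.03-fold. For T cells and innate lymphoid cells the counts were 10 of 17 measured (18 listed) toward the colon and 2 toward the liver (median -1.04). The chemokine *Ccl5* was 4.88-fold, the kinase *Lck* 2.8-fold and *Itgae*, the integrin of intraepithelial lymphocytes, 2.42-fold higher in the colon. *Cd3e* was 3.7-fold higher in the liver, against the direction of *Lck*. Colon LL replicate 4, described above, was the highest colon mouse for the B cell, T cell, macrophage and Kupffer lists. Without it and the other 3 mice with markers of other cell types, the medians were -0.04 for B cells, -1 for T cells, -1.08 for macrophages and 3.7 for Kupffer cells, and the counts of called genes were the same.

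**Figure D4:**
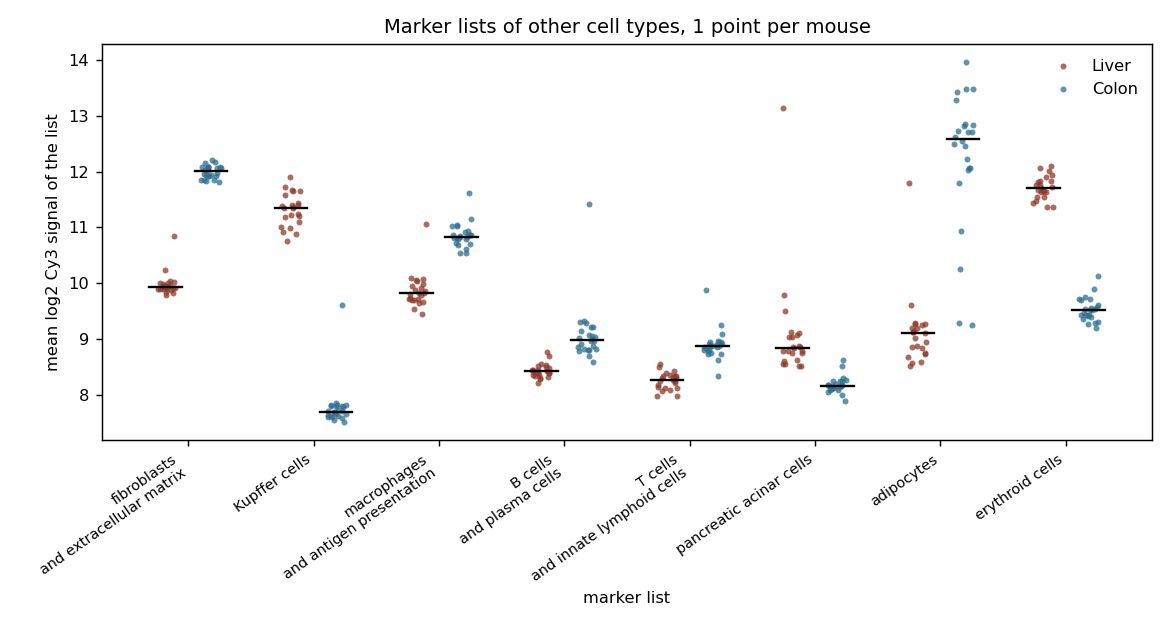
Mean log2 Cy3 signal of marker lists (y axis) for 8 cell types (x axis), with 1 point per mouse (23 liver, 24 colon) and a bar at the median. Single mice stand apart, such as a liver mouse at 13.14 for pancreatic acinar cells and a colon mouse at 11.42 for B cells, and the adipocyte list ranges from 9.25 to 13.97 in the colon.

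Defence proteins were divided evenly between the organs, with 9 of 20 measured genes (21 listed) higher in the liver and 9 in the colon. Their median was 0.16, which turned to -0.13 with the scanner software's processed signals. The liver members with the largest differences were acute phase and iron proteins. *Saa4* was 71-fold, C-reactive protein (*Crp*), above background on 11 colon arrays, 28.4-fold, and *Hamp* and *Hamp2*, which encode hepcidins, 23-fold and 22.4-fold higher in the liver. The colon members with the largest differences were proteins of the mucosal barrier, with *Lypd8* 159-fold and *Reg3b*, a lectin that kills bacteria, 21.6-fold higher. *Reg3b* varied over 4 log2 units among colon mice, from -4.85 to -0.7 (median -2.64), and stood between -7.78 and -6.64 in the liver. *Saa1* and *Saa2*, which the liver makes in the acute phase and the colon epithelium makes in response to bacteria, were 3.15-fold and 2.66-fold higher in the colon, and these are nearly identical genes whose probes cannot be told apart with certainty. *Nos2* was near background in both organs.

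Selenoproteins, to which the selenium of the diets contributes, differed gene by gene. Of 22 measured, 9 were higher in the liver and 3 in the colon, with a median of 0.26 that turned to -0.17 with median centring in place of loess. *Sephs2*, which makes the selenium donor, was 7.44-fold higher in the liver (0.57 to 2.15 against -1.78 to -0.69), *Selenop*, the selenium carrier of plasma, 5.62-fold, *Msrb1* 3.8-fold and the deiodinase *Dio1* 1.83-fold. *Gpx1*, the peroxidase of most cells, had ratios of -0.18 to 0.73 in the liver and of -2.3 to -1.97 in the colon, a 5.44-fold difference. Its relative *Gpx2*, whose promoter is shown above, was 19.3-fold higher in the colon, with -0.3 to 0.8 there against -4.38 to -3.72 in the liver. *Selenom*, of the endoplasmic reticulum, was 19.7-fold higher in the colon. *Gpx4*, which protects membrane lipids, was 2.13-fold higher in the liver. *Gpx3* (difference -0.04 ± 0.057), *Txnrd1* (0.14 ± 0.08) and *Selenof* (0.0033 ± 0.071) were not called.

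Hox genes set position along the body axis, and 18 of 36 measured (39 listed) were higher in the colon and 3 in the liver (median -0.59). The highest were of the Hoxb cluster on chromosome 11, with *Hoxb7* 14.1-fold, *Hoxb9* 12.6-fold, *Hoxb6* 12.5-fold and *Hoxb3* 8.85-fold higher in the colon, and *Hoxb3* was above background on 9 liver arrays. *Hoxb7* had ratios of 1.02 to 1.68 in the colon and -2.96 to -2.08 in the liver. *Hoxa10* and *Hoxa9* were 2.97-fold and 2.19-fold higher. *Hoxc5* was 2.13-fold higher in the liver. *Hoxd13*, whose probe was called toward the liver, was above background on 1 liver array and 0 colon arrays, so no fold is given. *Hoxd12* differed by -0.0012 ± 0.042 and turned to 0.66 with median centring.

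Of 77 cytosolic ribosomal protein genes, 60 were higher in the colon and 0 in the liver, with a median of -0.86. *Rplp0* was 3.65-fold (0.37 to 1.11 against -1.54 to -0.77), *Rps12* 3.06-fold, *Rps29* 2.78-fold and *Rps20* 2.76-fold higher, while *Rpl36a* differed by -0.083 ± 0.059. Pseudogenes of ribosomal proteins are many and similar, so single values of this list are uncertain. Of 39 proteasome subunits, 18 were higher in the liver and 2 in the colon (median 0.58). The 2 subunits higher in the colon, *Psmb10* (3.28-fold) and *Psmb8* (1.83-fold), are both catalytic subunits of the immunoproteasome. *Psma8*, a subunit known from testis, was the highest in the liver at 3.31-fold. With median centring in place of loess, 3 subunits were called toward the liver and 4 toward the colon. For 36 subunits of respiratory complex I, 7 were higher in the liver (19.4%, against 18.5% of all named genes) and 0 in the colon, with a median of 0.41 that turned to -0.005 with median centring. *Ndufa4*, which is also assigned to complex IV, was the highest at 2.69-fold.

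Markers of tissue that should be in neither organ, or that lies beside it, were counted too. All 7 adipocyte genes were higher in the colon (median -3.22), with wide spread. *Adipoq*, a hormone of fat cells, ranged from -1.47 to 3.34 (median 2.54) in the colon and from -2.62 to 2.03 (median -2.12) in the liver, and the organs overlapped (-4.12 ± 0.31, FDR = 4.54e-16). The adipocyte list as mean log2 Cy3 signal ranged from 9.25 to 13.97 in the colon mice and from 8.52 to 11.79 in the liver mice, and the highest liver mouse was LH replicate 4. *Lpl* and *Scd2*, described above as higher in the colon, are also genes of fat cells, and the part of attached fat in their differences was not tested. Of 9 pancreatic acinar genes, 6 were higher in the liver and 0 in the colon (median 0.92). Without the 4 mice, among them liver HL replicate 1, 4 were called with a median of 0.56, and 0 were called with median centring in place of loess. Erythroid genes were higher in the liver for 4 of 5 measured (7 listed). *Alas2*, which starts haem synthesis in red cell precursors, led at 19.5-fold. The haemoglobin genes *Hbb-bt* and *Hba-a1*, which have near copies, were 7.97-fold and 5.45-fold higher. Of 6 skeletal muscle genes, *Ckm* and *Tnni2* were called higher in the liver by 1.58-fold and 1.53-fold, and *Acta1* differed by 0.022 ± 0.064. None of the 6 was called with median centring in place of loess.

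The difference between the organs was then followed within each diet. All 12497 called probes had the same sign in all 4 diets, and 10405 of them were called within every diet. These probes were called on the mean of the same 4 differences, so the agreement in sign was largely set by that selection. Within a diet, the probes higher in the liver were 5909 for HH, 6174 for HL, 6136 for LH and 6032 for LL, and those higher in the colon 6144, 6528, 6833 and 6606. For *Alb* the differences were 4.89, 4.95, 5.17 and 5.15 in HH, HL, LH and LL. *Gpx1* differed by 2.53, 2.43, 2.45 and 2.37, and *Gpx2* by -4.34, -4.33, -4.22 and -4.2. For the 1608 genes over 4-fold apart, the range of the difference over the diets had a median of 0.28 and a maximum of 1.88, against a median size of the difference of 3.23. An F test of the interaction of organ and diet called 0 probes (0%), with a lowest FDR of 1, and 1042 probes (2.53%) had an unadjusted p under 0.05. This share is smaller than the 0.05 expected without any interaction. The test had no slide term, although every slide held all 4 diets. With slide as a random block 2293 probes had such a p, and 0 were called. A p that misses the threshold does not show that the organs responded alike. All 41 gene lists kept the sign of their median in every diet, with a median range over diets of 0.22 and the widest range, 1.28, for pancreatic acinar genes, where liver HL replicate 1 stood apart.

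**Figure D5:**
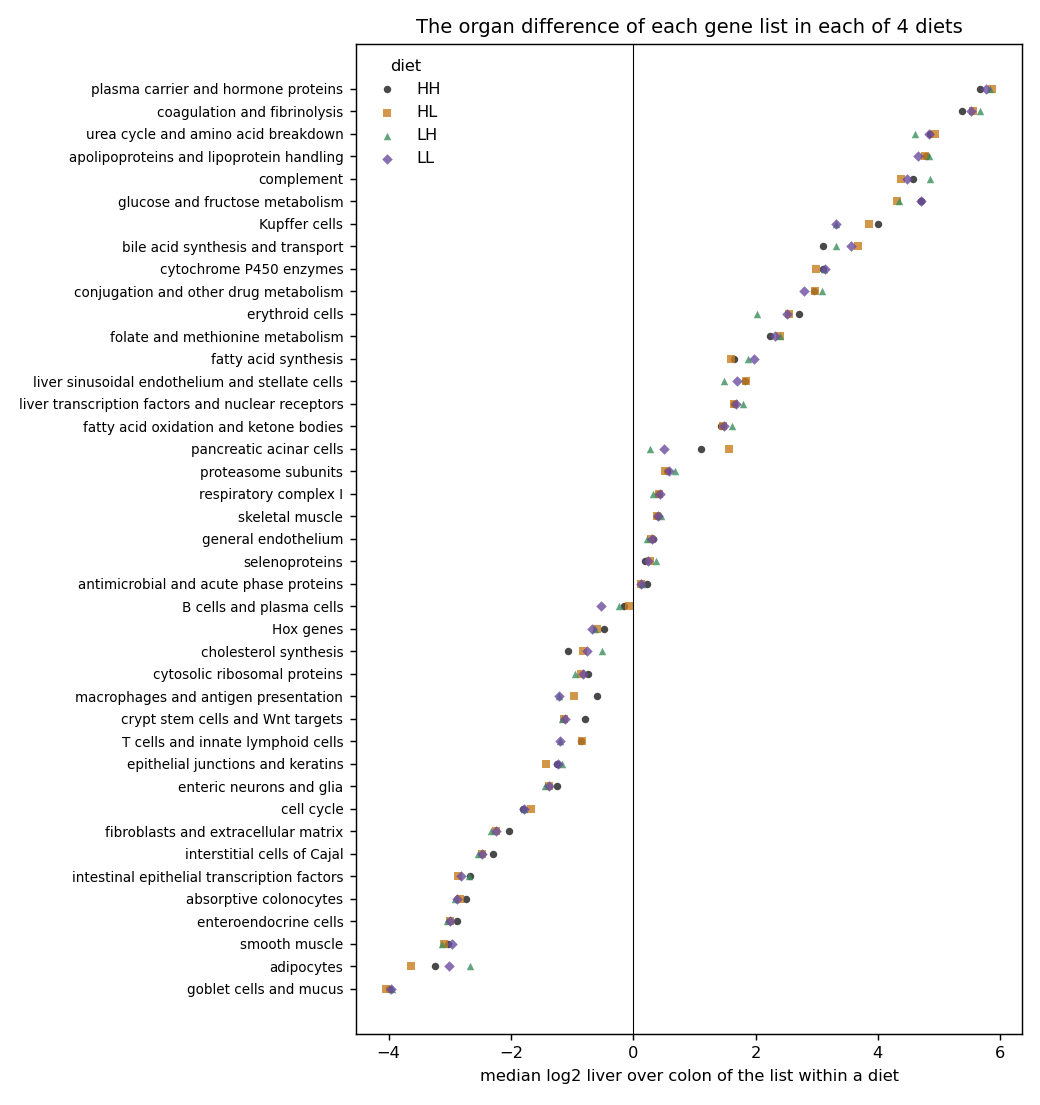
Median log2 difference of liver minus colon (x axis) of each gene list (y axis) within each diet group, with 1 symbol per diet. The 4 symbols of a list lie on the same side of 0 for all 41 lists and mostly overlap, with a median range of 0.22, and they spread most for pancreatic acinar genes (1.28).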

How the data were processed

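RNA of liver and colon was hybridised to 2-colour Agilent mouse arrays of 45018 spots, with the mouse RNA in Cy3 and a common reference in Cy5. The deposited scanner files hold intensity values made by the authors with Agilent Feature Extraction software, as spot and background medians and as processed signals, together with other columns of 0 or 1 flags from the same deposited files. The deposited value table holds log2 ratios that the authors made with limma in R 3.0.2 (per the labels), and it was used as an alternative. Its columns have medians between -0.0012 and 0.019, and its sign was turned, because it followed Cy5 over Cy3 on these arrays. Here all ratios are Cy3 over Cy5, the opposite direction.

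Background was corrected with normexp (offset 50), after a local background brighter than its spot was replaced by the array median (0 to 12 spots an array in Cy3, 28 to 544 in Cy5). Ratios were normalised within each array by global loess (span 0.3). Control spots and spots flagged as outliers (102 to 261 an array) were left out, spots of one probe were averaged, and the 2 arrays of one animal were averaged. Of 41174 probes, 27050 carried a gene name, for 18434 genes, each represented by its brightest probe. In 6565 genes with several probes, 59 had probes called in opposite directions. An 8-group limma fit (R 4.3.3, limma 3.58.1, data.table version 1.17.8) gave the contrast of the mean of the 4 liver groups minus that of the 4 colon groups, with Benjamini-Hochberg adjustment. A call required a change of over 1.5-fold with FDR below 0.05, and a strict call used treat against 4-fold. The interaction was tested with a moderated F test. P-values measure the spread between these mice, which the main fit treated as independent. Organ lay wholly between slides, and arrays of one slide were correlated (0.206). The printed standard errors and p-values do not take this into account.

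Named genes were the 15 with the largest difference in each direction without overlap, from each list the 4 largest called members of the leading direction, the 2 largest of the other and the smallest, the isozyme families and 2 sex-linked genes. Other genes were named for their known roles after their values were seen. The members, the lists (890 genes, of which 867 were measured) and the motifs were chosen with earlier results of these data known. On simulated data (seed 1) all 100 of the 2-fold and all 100 of the 8-fold changes were called, with 0 false calls among 40774 unchanged probes, and 198 of 200 simulated interactions, each a 4-fold change in the liver of 1 diet, were called, with 9 false calls among 40974 unchanged probes. The simulated noise was normal and independent between probes and mice, without slide effects or mice that stood apart. The counts of false calls hold for such noise only, and interactions smaller than 4-fold were not simulated. Alternatives covered the background, normalisation, filters, thresholds, slide as a random block, array weights, single diets, leaving out mice and the values of the deposited matrix. Some genes, families and motifs are not reported here.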

Additional observations from a re-analysis of the deposited data

Results flagged for a closer look

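The mean log2 Cy3 signal of each marker list was checked within each group of 5 or 6 mice for a mouse far from the others of its group. Of 152 checks in all, some of them on values other than marker lists, 22 held one, each on a marker list. For independent, normally distributed values chance would flag about 1 in 20 groups, but the lists here were scored on the same mice. The reason for each was not tested.

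Colon LL replicate 4 stood apart in 8 lists. It was high for B cells and plasma cells (11.42, the others of its group 8.59 to 9.14), T cells and innate lymphoid cells (9.88, others 8.62 to 8.95), macrophages (11.62, others 10.72 to 10.86), Kupffer cells (9.6, others 7.6 to 7.8) and liver sinusoidal endothelium (9.61, others 9.06 to 9.15). It was low for absorptive colonocytes (12.28, others 12.55 to 12.67), enteroendocrine cells (10.68, others 11.03 to 11.15) and smooth muscle (12.84, others 13.21 to 13.29).

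Liver LH replicate 4 was high for adipocytes (11.79, others 8.58 to 9.13), fibroblasts (10.24, others 9.83 to 9.95) and B cells (8.69, others 8.28 to 8.43). The HH liver animal with 2 arrays was high for fibroblasts (10.84, others 9.89 to 9.98). Liver HL replicate 1 was high for pancreatic acinar cells (13.14, others 8.55 to 9.5), and so were colon HL replicate 4 (8.62, others 7.88 to 8.15) and colon LH replicate 3 (8.52, others 8.14 to 8.26). Liver HH replicate 5 was low for sinusoidal endothelium (10.63, others 11.45 to 11.59), and colon HL replicate 5 low for T cells (8.33, others 8.72 to 8.94).

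Colon LH replicate 2 was low for adipocytes (9.28, others 12.04 to 12.82) and for plasma carrier proteins (9.84, others 9.96 to 10.01). For absorptive colonocytes, liver LH replicate 1 (10.2, others 9.81 to 9.94) and colon HL replicate 3 (12.83, others 12.54 to 12.6) were high, and for goblet cells colon HH replicate 4 was high (14.19, others 13.84 to 13.97).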

How the results depend on the processing

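With median centring in place of loess, which shifted the median of all probes from 0.01 to 0.22 (log2), 24223 probes were called, 13992 higher in the liver and 10231 in the colon, so that 57.8% of calls were toward the liver against 48.2%. The strict calls toward the colon rose to 1736 and those toward the liver fell from 1105 to 797, and the calls within diets were 25399 (HH), 25076 (HL), 21553 (LH) and 23403 (LL). With the scanner software's processed signals 20173 probes were called (9270 liver, 10903 colon, 46% toward the liver), 4501 of them strictly (1707 liver, 2794 colon), and within diets 19014 (HH), 19687 (HL), 20183 (LH) and 19656 (LL). FDR alone called 28646 probes (14869 liver, 13777 colon), and a fold change over 2 with FDR under 0.01 called 7101 (3225 liver, 3876 colon). Of the 12497 called probes, median centring kept 9210 calls and turned the sign of 156, the mouse channel alone of 5 and the processed signals of 4. The cause was not tested, beyond the thresholds themselves.

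Median centring reversed *Blk* (0.62), *Hoxd12* (0.66), *Ret* (0.71) and the medians of general endothelium (-0.26), complex I (-0.005) and selenoproteins (-0.17). The processed signals reversed *Fgf15* (-0.66) and the median of antimicrobial proteins (-0.13). Leaving out 1 mouse at a time gave 12446 to 12551 calls (5983 to 6073 liver, 6448 to 6494 colon), 2229 to 2285 strict calls (1091 to 1119 liver, 1132 to 1166 colon), and within diets 11904 to 12340 (HH), 12567 to 12810 (HL), 12824 to 13139 (LH) and 12581 to 12753 (LL). The interaction stayed at 0 calls in every alternative run, with 749 to 3040 probes at an unadjusted p under 0.05. Slide as a random block (correlation 0.206) called 12493 probes, and the strict calls were 2156 against 2255 without the block. The alternatives without the mice that carried markers of other cell types were chosen after seeing the data. No paired analysis was possible because the labels do not tie the liver and the colon of one mouse. Spots near background limit the smallest levels to bounds.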
